A study of Mus musculus with 4 samples.

Results

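Classical monocytes were picked out of the CD11b+ cells of mouse MC38 tumors by the RNA they held, and 4248 of 25333 kept cells met the definition. A cell needed at least 10 unique molecular identifiers (UMIs, each standing for 1 captured RNA molecule) summed over Chil3, Vcan and Plac8. It could hold at most 2 UMIs of C1qa, C1qb and C1qc. It also had to hold fewer than 10 UMIs of S100a8 and S100a9, fewer than 5 of Ncr1, Klrb1c, Gzma and Prf1, fewer than 2 of Cd209a, fewer than 10 of Arg1, fewer than 10 of Cxcl9 and Nos2, and fewer than 10 of Ifit1, Ifit2 and Ifit3. These limits are aimed at macrophages, neutrophils, NK cells, type 2 dendritic cells and monocytes in 3 induced states. A small set of cells with RNA of dendritic cells and other cell types still passed them and is described below. The values of these genes chose the cells and are given as description.

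Classical monocytes leave the bone marrow under the control of CCR2, the receptor for CCL2, and carry Ly6C on the surface. In tumors they are the precursors of most macrophages and of a share of the suppressive myeloid cells called monocytic myeloid-derived suppressor cells. As they mature in tissue they lose Ly6C and gain macrophage genes such as C1q and Apoe, and a share of them gains MHC class II. VISTA, encoded by Vsir, is an inhibitory receptor of myeloid cells and T cells.

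The cells came from bone marrow chimeras of the C57/BL6 strain that had been reconstituted for 6 weeks with wild-type (WT) or VISTA knockout (VISTA KO) marrow. The chimeras then carried MC38, a transplanted colon carcinoma line, until tumors were 9 to 10 mm wide. Tumors were pooled and digested, donor cells were told apart by the CD45.1 and CD45.2 forms of CD45, and viable CD11b+ cells were sorted. The title of the series names STAT3 and polyamines as the routes by which VISTA acts on suppressor cells. RNA and antibody tags against CD11c, Ly6G and Ly6C were read from the same droplets as separate libraries, so the 4 samples hold no replicate of either genotype. The labels do not say which CD45 form belonged to which genotype, how many tumors were pooled, or which part of Vsir the knockout removes.

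Sequencing yielded 10241 WT barcodes (61753547 gene UMIs, median 4678 each) and 15257 VISTA KO barcodes (80366761 gene UMIs, median 4189 each). Among kept cells 46 barcode sequences occurred in both libraries, 9 of them in WT monocytes and 8 in VISTA KO monocytes, and no barcode was a monocyte in both. With 1 library per group no test was possible and no p-value is given. Levels are UMIs of a gene per 1000000 UMIs summed over the cells of a set in 1 library (CPM). Ratios are VISTA KO over WT, and all 95% intervals cover counting error only. Ratio intervals leave out the spread between cells, so they are too narrow for genes with a few very high cells. A gene was called higher or lower where the ratio was at least 1.5-fold and its exact binomial interval left out 1.

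The promoters of 4 genes that the results turn on are shown, each as 300 bases from 250 before to 50 after the start of the RefSeq gene in GRCm38.p6. H2-Aa (chr17:34287774-34288073, minus strand) and H2-Eb1 (chr17:34305617-34305916, plus strand) encode chains of MHC class II, and the capitals mark the Y box CTGATTGG. Ly6c2 (chr15:75111922-75112221, minus strand) encodes Ly6C, and the capitals mark the PU.1 motif GAGGAAGT. Isg15 (chr4:156200769-156201068, minus strand) is an interferon-induced gene, and the capitals mark overlapping copies of the interferon-stimulated response element, read as a pair of GAAA with any 2 bases between them.
H2-Aa: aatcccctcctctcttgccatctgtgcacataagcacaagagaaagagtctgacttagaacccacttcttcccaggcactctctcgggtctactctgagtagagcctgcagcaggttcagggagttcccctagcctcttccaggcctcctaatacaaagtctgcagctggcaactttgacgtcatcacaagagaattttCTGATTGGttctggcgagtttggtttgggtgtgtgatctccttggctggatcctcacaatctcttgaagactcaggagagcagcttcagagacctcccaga
H2-Eb1: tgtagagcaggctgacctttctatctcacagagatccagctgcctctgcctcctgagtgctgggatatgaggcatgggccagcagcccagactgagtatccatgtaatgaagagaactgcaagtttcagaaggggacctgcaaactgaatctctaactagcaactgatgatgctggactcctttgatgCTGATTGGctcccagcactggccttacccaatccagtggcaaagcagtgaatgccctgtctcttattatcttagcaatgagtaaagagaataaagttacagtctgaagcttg
Ly6c2: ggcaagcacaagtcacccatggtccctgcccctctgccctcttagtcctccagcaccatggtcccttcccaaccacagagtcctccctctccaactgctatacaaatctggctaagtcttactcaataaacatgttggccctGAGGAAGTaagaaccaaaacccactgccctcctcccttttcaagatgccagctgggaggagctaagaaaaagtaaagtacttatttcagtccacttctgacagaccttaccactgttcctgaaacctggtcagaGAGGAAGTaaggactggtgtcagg
Isg15: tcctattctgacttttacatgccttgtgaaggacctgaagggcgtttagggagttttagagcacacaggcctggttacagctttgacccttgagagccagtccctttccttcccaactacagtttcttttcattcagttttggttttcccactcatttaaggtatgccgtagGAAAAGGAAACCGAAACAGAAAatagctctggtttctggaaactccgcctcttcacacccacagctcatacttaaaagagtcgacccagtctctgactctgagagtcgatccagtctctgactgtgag

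The Y box began 51 bases before the start of H2-Aa and 62 before that of H2-Eb1. Searched on both strands of 32851 promoters of the same length, it was found in 4.10%, and in 4 of 9 MHC class II genes with a promoter in the table. The PU.1 motif was found in 3.20% of all promoters and in 2 of 12 classical monocyte genes, and began 108 bases before and 26 after the start of Ly6c2. The response element was found in 3.44% of all promoters and in 10 of 18 type I interferon-stimulated genes. In Isg15 its 3 copies overlapped and began 78, 72 and 66 bases before the start. These matches describe letters and are not evidence of binding.

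Monocytes made up 21.7% of kept WT cells (2208 of 10193, exact interval 20.9 to 22.5%) and 13.5% of kept VISTA KO cells (2040 of 15140, 12.93 to 14.03%). Among the cells past the marker and C1q limits, the monocytes were 54.0% (interval 52.4 to 55.5%) in the WT library and 52.1% (interval 50.6 to 53.7%) in the VISTA KO library, so these intervals overlapped. Of 7319 WT cells with enough Chil3, Vcan and Plac8, 4091 also passed the C1q limit, against 3913 of 9662 VISTA KO cells. Neutrophil RNA bore on the denominator, and of the cells without it the monocytes were 27.0% in WT and 14.1% in VISTA KO. NK cells held C1qa RNA at 39.1 CPM in WT and 131 CPM in VISTA KO, and the part of such RNA from other cells in the share that passed the C1q limit was not tested.

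A WT monocyte held 4256.5 UMIs and 1562 genes in the median, a VISTA KO monocyte 3699.5 UMIs and 1455.5 genes, and 1.07 and 1.14% of the UMIs were mitochondrial. The summed monocytes held 9797354 and 7954296 UMIs. Within the C1q limit, 62.3% of WT monocytes held no C1q UMI, 29.4% held 1 and 8.24% held 2. The VISTA KO monocytes lay closer to the limit, with 31.5% at 0, 40.3% at 1 and 28.1% at 2. At the marker limit, 87 WT and 151 VISTA KO monocytes held 10 or 11 marker UMIs, and 89 and 170 cells that passed every other limit held 8 or 9. Median depth was 2803 UMIs (WT) and 2449 (VISTA KO) just inside the limit and 2161 and 2201 just outside it.

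The label names Chil3, Vcan and Plac8, but Plac8 alone carried most cells past the limit. At least 10 UMIs of Plac8, which encodes a small cysteine-rich protein of leukocytes, were found in 97.5% of WT and 94.4% of VISTA KO monocytes. No UMI of Chil3 or Vcan was found in 643 WT monocytes (29.1%, 27.2 to 31.1%) and 754 VISTA KO monocytes (37.0%, 34.9 to 39.1%). Both genes were found in 31.6% and 20.7%. Ly6c2, which the definition did not use, was found in 96.9 and 97.2% of monocytes.

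A small set of the cells went against the label. Fewer than 5 UMIs of Lyz2, the lysozyme gene of monocytes and macrophages, were held by 193 WT cells (8.74%, 7.60 to 10.0%) and 156 VISTA KO cells (7.65%, 6.53 to 8.89%), a split chosen after the values had been seen. Ly6c2, which neither the definition nor the Lyz2 split used, stood in them at 1698 CPM (WT) and 1876 CPM (VISTA KO), against 4005 and 4154 in the other cells. Hp stood at 31.8 and 17.7, against 661 and 435, and Ccr2 at 397 and 483, against 905 and 1153. Their MHC class II list was 28665 and 32760, against 4250 and 12145. Type 2 dendritic cell markers summed to 479 and 570 in them, against 78.8 and 104 in the rest. Mature dendritic cell markers summed to 478 and 692, against 87.8 and 167. Type 1 dendritic cell markers summed to 472 and 1043, against 290 and 331. T cell markers stood at 228 in WT and 1.6 in VISTA KO, against 7.4 and 8.2. Basophil and mast cell markers stood at 164 and 210, against 5.66 and 6.96. NK cell markers stood at 127 and 177, against 18.6 and 25.4, and B cell markers at 187 and 122, against 53.3 and 55.7. The set thus held RNA of several cell types, not of dendritic cells alone. The Ly6C antibody tag, an independent readout, had a median of 342 and 336.5 tag UMIs in these cells and 881 and 850 in the rest. Some results below, such as those of H2-Aa, Cd74, Ccl5 and Isg15, are therefore also given for the 2015 WT and 1884 VISTA KO cells with at least 5 Lyz2 UMIs. Most others are given for all monocytes only. In those 2015 and 1884 cells the log2 ratio was 1.82 for Apoe, 1.48 for Cxcl16, -0.60 for Hp and -1.82 for Vsir.

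**Figure D1:**
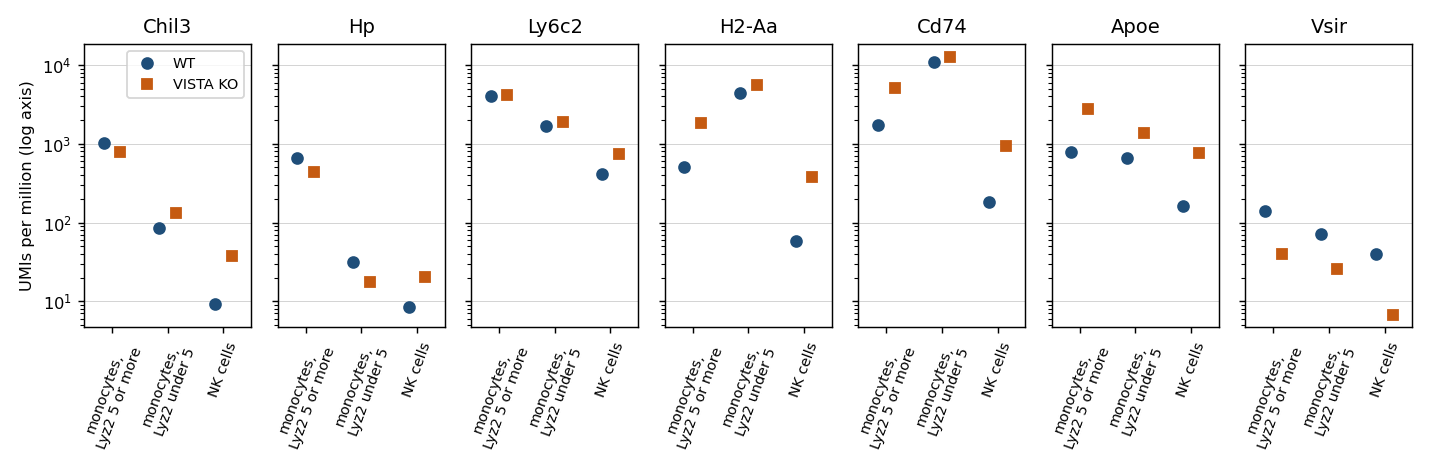
Levels of 7 genes in CPM (log axis) in monocytes with at least 5 Lyz2 UMIs, in those with fewer and in NK cells, with WT as circles and VISTA KO as squares. Each point is the sum over all cells of a set in 1 library, so there is no error bar for replicates. H2-Aa stood at 502 in WT and 1834 in VISTA KO in the cells with at least 5 Lyz2 UMIs, and at 4437 and 5535 in the cells with fewer.

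RNA from other cells was gauged in NK cells, which should make no macrophage RNA and were taken as cells with at least 5 UMIs of Ncr1, Klrb1c, Gzma and Prf1 that met the other upper limits and lay below the marker limit. There were 450 WT NK cells (median depth 2049 UMIs) and 293 VISTA KO NK cells (2175). Apoe, a lipid carrier made by macrophages, stood at 163 CPM in WT NK cells and 770 in VISTA KO NK cells. H2-Aa stood at 57.8 and 379, Cd74 at 183 and 938, and C1qa at 39.1 and 131. Chil3 stood at 9.32 and 37.9, and Lyz2 at 275 and 892. Macrophage and MHC class II RNA was thus several-fold more abundant in VISTA KO than in WT NK cells, and how far it entered the monocyte values was not tested.

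Among 7806 genes with at least 100 UMIs over both sums, 528 were higher in VISTA KO monocytes (6.76%) and 121 lower (1.55%). Dividing instead by the median ratio of all genes, which was 0.08 on the log2 scale, gave 398 higher and 171 lower. For the gene lists a minimum of 20 UMIs was used, and 8.04% of 10369 such genes were higher and 2.05% lower. The median log2 ratio over all 10369 was 0.11. Ifi202b, Apoe, Ccl5 and the MHC class II genes stood out on the higher side, and Chil1, Isg15, Vcan, Hp and Vsir on the lower side.

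**Figure D2:**
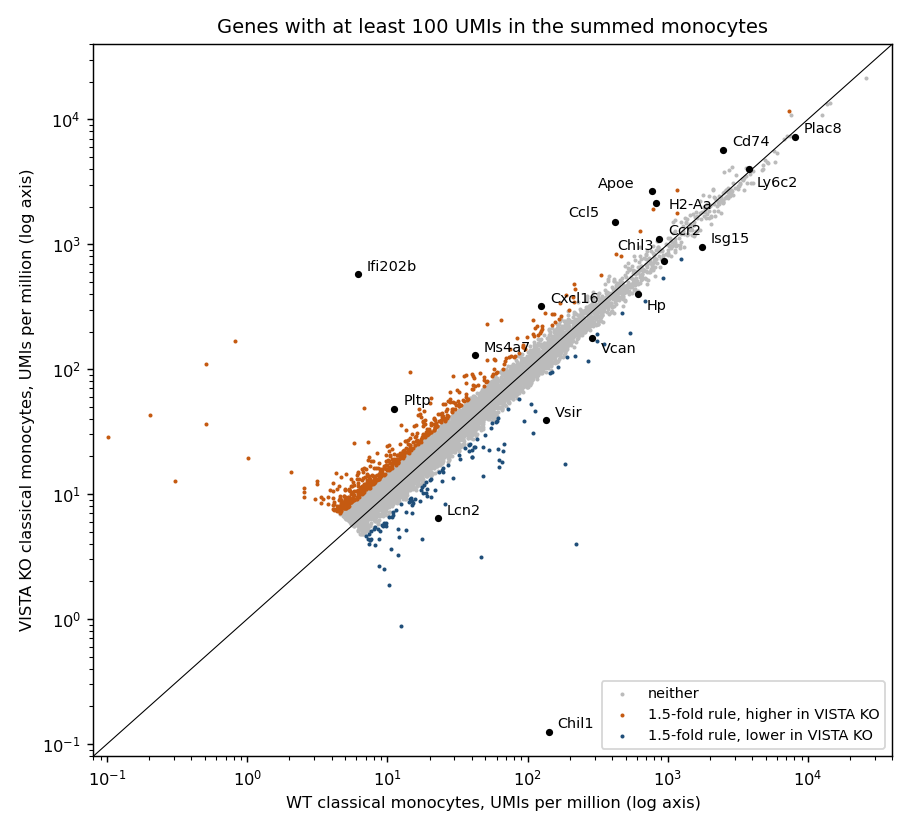
Level of each of 7806 genes in the summed VISTA KO monocytes against the summed WT monocytes, in CPM on log axes, with the line of equality. Orange points are the 528 genes called higher, blue points the 121 called lower and black points genes named in the text, among which Ifi202b lies far above the line and Chil1 far below it.

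Vsir itself stood at 136 CPM (WT) and 38.9 CPM (VISTA KO) in the monocytes, a log2 ratio of -1.80 (-1.99 to -1.62), and was found in 41.5 and 12.9% of cells. In NK cells it stood at 40.1 and 6.77. Vsir RNA was thus lower but still detected in VISTA KO monocytes, above the NK cells of the same library. Of 12 checkpoint and VISTA-related genes with at least 20 UMIs 2 were called higher, beside 8.04% of all such genes. They were Havcr2 (log2 ratio 0.75), which encodes TIM-3, and Pdcd1lg2 (1.15), which encodes PD-L2. Cd274, which encodes PD-L1, stood at 94.9 and 116 CPM and was not called.

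Of the classical monocyte genes, 3 of 18 were called lower in VISTA KO, beside 2.05% of all genes. None was called higher, and the list's median log2 ratio was -0.20. Vcan, the matrix proteoglycan versican, stood at 288 and 177 CPM (-0.70, -0.79 to -0.61). Hp, which encodes haptoglobin, the plasma protein that binds free hemoglobin, stood at 611 and 403 (-0.60, -0.66 to -0.54). Gsr, which encodes glutathione reductase, stood at 311 and 192 (-0.69, -0.78 to -0.60). Vcan, Hp and Gsr were all less abundant in VISTA KO monocytes. Vcan, however, was selected on, and the calls of Hp and Vcan ended among cells with a Chil3 or Vcan UMI (-0.54 and -0.52).

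The other classical markers differed by less than 1.5-fold. Chil3, which encodes a chitinase-like protein of myeloid cells, stood at 936 CPM (WT) and 732 CPM (VISTA KO), with a log2 ratio of -0.35. Plac8 stood at 8041 and 7226 (-0.15), and both are genes of the definition. Ly6c2 stood at 3820 and 3976 (0.06, 0.04 to 0.08). Ccr2, the receptor for exit from the marrow, stood at 865 and 1100 (0.35, 0.30 to 0.39). F13a1, a clotting factor subunit, stood at 334 and 241 (-0.47). Lyz2 had a log2 ratio of -0.05. The RNA for Ly6C and lysozyme was therefore close between the genotypes, while Ccr2 lay above and F13a1 below equality.

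MHC class II genes were higher in VISTA KO monocytes. CIITA, their master activator, and the Y box that binds NF-Y act together at class II promoters, and Cd74 encodes the chain that guards the peptide groove. H2-Aa stood at 818 CPM in WT monocytes and 2124 CPM in VISTA KO monocytes, with a log2 ratio of 1.38 (1.34 to 1.42). H2-Eb1 stood at 786 and 1913 (1.28, 1.24 to 1.32), and H2-Ab1 at 1157 and 2700 (1.22, 1.19 to 1.25). Cd74 stood at 2490 and 5702 (1.20, 1.17 to 1.22), and Ciita at 36.5 and 77.6 (1.09, 0.90 to 1.28). These 5 of 13 list genes were called higher, beside 8.04% of all genes, and none lower. All 13 had a ratio above 1, with a median log2 ratio of 0.54. Cd86, which encodes a costimulatory ligand, stood at 110 and 137, and H2-DMa, a peptide-loading chain, at 498 and 665, both short of the rule.

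The class II difference was larger in the cells with more Lyz2. In monocytes with at least 5 Lyz2 UMIs, H2-Aa stood at 502 and 1834 (1.87, 1.82 to 1.92) and Cd74 at 1755 and 5105 (1.54). In monocytes with a Chil3 or Vcan UMI the log2 ratio of H2-Aa was 1.99 and that of Cd74 was 1.67. In the cells with fewer than 5 Lyz2 UMIs it was 0.32 (0.25 to 0.39) for H2-Aa and 0.22 for Cd74, below the rule. At matched depth, after each cell was thinned to 2000 UMIs, 28.1% of WT and 63.6% of VISTA KO monocytes held an H2-Aa UMI (36.3 and 74.5% unthinned). The same share in thinned NK cells was 6.03 and 42.2%, and the thinned sets held 2097 and 1868 monocytes and 232 and 185 NK cells. At least 5 H2-Aa UMIs were held by 11.3 and 28.5% of thinned monocytes against 0.431 and 2.16% of thinned NK cells. Mean H2-Aa UMIs per cell were 3.63 and 8.28 in monocytes and 0.138 and 0.956 in NK cells. The monocytes thus exceeded the NK cells of their own library in both genotypes, and the gap in UMIs per cell was larger in VISTA KO.

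Macrophage genes shifted in the same direction. Of 17 macrophage markers 9 were called higher, beside 8.04% of all genes, and none lower (list median log2 ratio 0.84). Among the 9, 3 were the C1q genes that the definition caps. The summed list stood at 1684 CPM (WT) and 4082 CPM (VISTA KO), against 9876 and 13178 in all kept cells. Apoe stood at 769 and 2641 (1.78, 1.74 to 1.82) and was found in 56.2 and 90.0% of monocytes. Ms4a7, a membrane protein of tissue macrophages, stood at 42.2 and 129 (1.61, 1.44 to 1.78). Cd72 had a log2 ratio of 1.24, Mrc1, the mannose receptor gene, 1.01, and Selenop, which encodes a selenium carrier, 0.65. Adgre1, which encodes F4/80, stood at 52.3 and 72.4, below the rule.

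For these genes the NK cells set a high floor in VISTA KO. Thinned to 2000 UMIs, Apoe was held by 39.1 and 77.0% of monocytes and by 25% of WT and 64.9% of VISTA KO NK cells, and at least 5 Apoe UMIs by 9.30 and 33.5% of monocytes and 0.431 and 3.78% of NK cells. Ms4a7 was held by 4.86 and 15.7% of thinned monocytes and 3.45 and 12.97% of thinned NK cells. C1qa was held by 7.77 and 17.0% of monocytes and 8.62 and 22.2% of NK cells, but the definition caps it in both sets of cells, so these shares are description. Apoe in UMIs per cell was 3.41 and 10.3 in monocytes and 0.389 and 1.94 in NK cells. Ms4a7 in UMIs per cell was 0.187 and 0.502 in monocytes and 0.042 and 0.222 in NK cells. Apoe in monocytes therefore lay above the floor in both genotypes. Ms4a7 lay close to it in thinned shares but above it in UMIs per cell.

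The ratios were also taken at each number of C1q UMIs. Among the 1376 WT and 643 VISTA KO monocytes with no C1q UMI, the log2 ratio was 1.72 (1.67 to 1.78) for Apoe, 1.43 (1.37 to 1.49) for H2-Aa and 1.82 (1.58 to 2.07) for Ms4a7. Among the 182 and 574 monocytes with 2 C1q UMIs it was 1.77, 1.83 and 1.17. Vsir had -1.71 in the former and -1.96 in the latter. The direction was thus the same at both ends of the allowed C1q range.

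**Figure D3:**
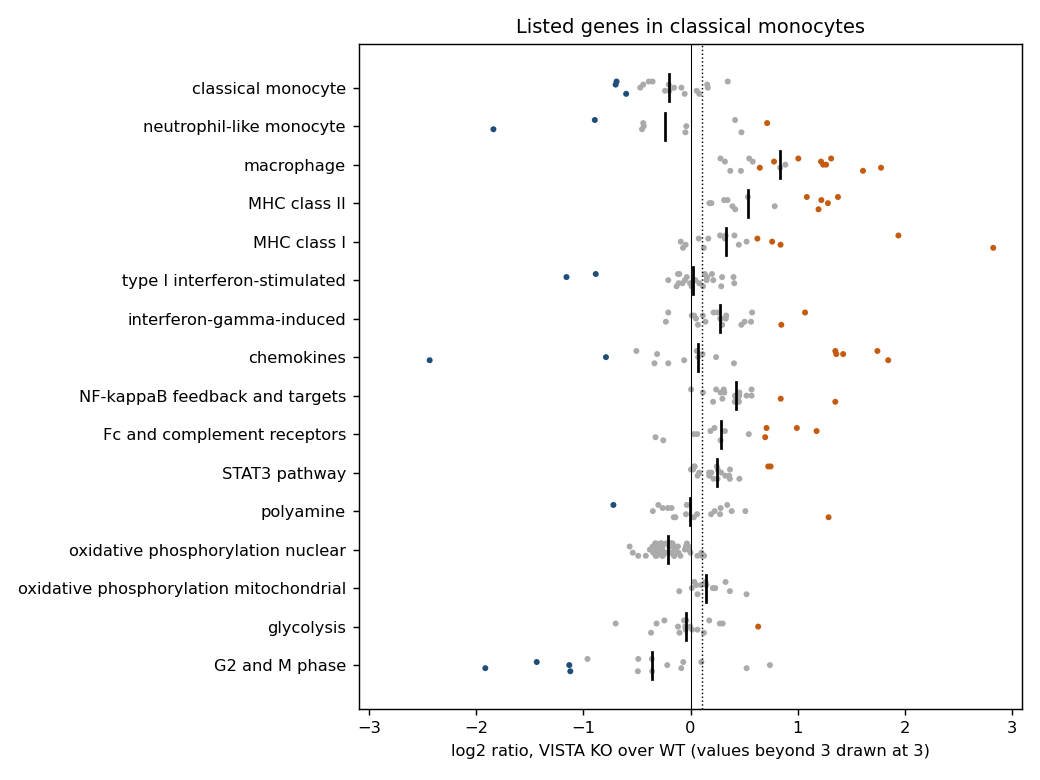
Log2 ratio of VISTA KO over WT in the summed monocytes for each gene of 16 lists with at least 20 UMIs. Orange points were called higher and blue points lower under the 1.5-fold rule, the short black bar is the median of a list and the dotted line the median of all 10369 genes, 0.11. Macrophage and MHC class II genes lie to the right, with list medians of 0.84 and 0.54, and nuclear oxidative phosphorylation genes cluster just left of 0, with a median of -0.21.

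MHC class I genes were higher in part. Of 17 genes, 5 were called higher, beside 8.04% of all genes, and none lower (list median log2 ratio 0.33). H2-K1, a classical class I heavy chain, stood at 1159 and 1787 CPM (0.62, 0.59 to 0.66), whereas H2-D1 stood at 2095 and 2784 (0.41) and B2m, the light chain, at 2746 and 3947 (0.52), under the rule. H2-T23, which encodes the nonclassical Qa-1, had 0.76 and H2-Q4 had 0.84. H2-Q7 (64.4 and 247, log2 ratio 1.94) and H2-Q6 (6.84 and 48.5, 2.83) differed most, but these Q-region genes are near-identical copies and the split of reads between them is uncertain.

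Chemokine genes moved in both directions, with 5 of 17 higher, 2 lower and a list median of 0.07. Over all genes 8.04% were called higher and 2.05% lower. Ccl5, whose product attracts T cells and NK cells, stood at 418 CPM (WT) and 1503 CPM (VISTA KO) (1.85, 1.79 to 1.90) and was found in 19.9 and 57.5% of monocytes. NK cells themselves express Ccl5, at 15244 and 13043, so its level in the NK cells was no gauge of RNA from other cells. Cxcl16, the membrane-bound ligand of CXCR6, stood at 124 and 319 (1.36, 1.26 to 1.46), while the NK cells held 6.52 and 69.05. Ccl8 and Ccl22 had 1.43 and 1.35 from levels below 25 CPM, and Cxcl14 had 1.75. Cxcl2, a neutrophil attractant, was lower, at 218 and 126 (-0.79, -0.90 to -0.68). Its relative Cxcl3 (-2.44) was called lower too but was found in fewer than 1% of cells. Ccl2, the ligand of CCR2, stood at 2046 and 1441 (-0.51, -0.54 to -0.47) and did not reach the rule. The Cxcl3 ratio rested on 100 and 15 UMIs, and with a marker limit of 15 UMIs its sign turned, to 0.49 (-0.66 to 1.65). After thinning, a Cxcl2 UMI was held by 11.2% of WT and 8.83% of VISTA KO monocytes, with a variance over the mean of 26.3 and 8.95. The Cxcl2 interval leaves out this spread between cells, and the part of neutrophil RNA in Cxcl2 was not tested. The T cell attractants Ccl5 and Cxcl16 were therefore higher in VISTA KO monocytes, while Cxcl2 was lower in the summed level.

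The Ccl5 log2 ratio depended on the cells chosen. It was 2.23 (2.17 to 2.29) in monocytes with at least 5 Lyz2 UMIs, 3.20 (3.02 to 3.39) in those with UMIs of both Chil3 and Vcan, and 0.35 in those with fewer than 5 Lyz2 UMIs. After thinning, at least 5 Ccl5 UMIs were held by 4.63% of WT and 17.3% of VISTA KO monocytes. Before thinning, the most Ccl5 UMIs held by a monocyte were 733 in WT and 302 in VISTA KO. The Ccl5 intervals do not cover such spread between cells.

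Type I interferon-stimulated genes did not move together. Of 24 genes none was called higher and 2 lower, beside 8.04 and 2.05% of all genes, with a median log2 ratio of 0.03. Isg15, a ubiquitin-like interferon-induced protein, stood at 1752 CPM (WT) and 949 CPM (VISTA KO), with a log2 ratio of -0.89 (-0.92 to -0.85). Ifi205, of the Ifi200 family of DNA sensors, stood at 353 and 158 (-1.16, -1.25 to -1.07), and that family lies in a stretch of chromosome 1 treated below. Irf7, the amplifier of the interferon response, stood at 714 and 876 (0.30), Rsad2 at 255 and 283 (0.15), and Cxcl10 at 1877 and 1625 (-0.21). In monocytes with at least 5 Lyz2 UMIs the log2 ratio of Isg15 was -0.88. The Ifit genes were capped by the definition. The 549 WT and 601 VISTA KO cells that failed on this cap alone held Rsad2 at 1332 and 1263 CPM. The cap thus also left out cells high in another gene of this list, and its part in the list median was not tested. Isg15 was thus lower in VISTA KO monocytes while Irf7, Rsad2 and Cxcl10 lay within the rule.

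Of 21 interferon-gamma-induced genes 2 were called higher and none lower (list median log2 ratio 0.28), near the 8.04% of all genes called higher. Ly6i, of the Ly6 surface protein family, stood at 187 and 393 (1.07, 0.99 to 1.15), and Serpina3g, a serine protease inhibitor, had 0.85. Gbp2, which marks the response to interferon gamma, had 0.33 and was not called. Of 20 NF-kappaB feedback and target genes 2 were called higher and none lower, again near the share of all genes. The list median was 0.42, and all 20 had a ratio above 1. The 2 were Bcl2a1b (0.84) and Bcl2a1d (1.35), near-identical survival genes of the BCL2 family.

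Granule and neutrophil genes tended to be lower. Of 11 neutrophil markers with at least 20 UMIs 6 were called lower and 1 higher, beside 2.05 and 8.04% of all genes. S100a8 and S100a9 among the 6 were capped by the definition. Lcn2, which encodes the iron-scavenging lipocalin, stood at 22.97 and 6.41 CPM (-1.84, -2.31 to -1.40). Slpi, a leukocyte protease inhibitor, stood at 315 and 170 (-0.89, -0.99 to -0.80). Among progenitor genes 4 of 7 were called lower and 1 higher, beside the same shares of all genes. Prtn3, which encodes proteinase 3, stood at 40.1 and 19.9 (-1.01), and Cebpe, a transcription factor of granule formation, at 20.5 and 9.43 (-1.12). Elane and Ctsg, the other granule proteases, were found in fewer than 2% of monocytes. Neutrophil markers summed to 5155 CPM over all kept WT cells and 1354 over all kept VISTA KO cells. NK cells held S100a8 at 33.5 CPM (WT) and 8.12 CPM (VISTA KO) beside 53.1 and 22.6 in monocytes. The part of neutrophil RNA in Lcn2 and Slpi was not tested.

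The genes of the pathways in the series title are read beside all genes, of which 8.04% were called higher and 2.05% lower. Of 21 STAT3 pathway genes 2 were called higher and none lower (list median log2 ratio 0.25). All 21 had a ratio above 1, where the median log2 ratio of all genes was 0.11. Stat3 itself stood at 141 CPM (WT) and 167 CPM (VISTA KO) (0.25, 0.14 to 0.35), and its feedback inhibitor Socs3 at 263 and 360 (0.46, 0.38 to 0.53). Csf3r, the G-CSF receptor gene, stood at 36.3 and 60.1 (0.73, 0.52 to 0.93). Lifr (0.75) rested on levels under 8 CPM and its call ended under 6 of 12 alternatives.

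Of 20 polyamine genes 1 was called higher and 1 lower, with a median of -0.00. Odc1, the rate-limiting enzyme of polyamine synthesis, stood at 35.9 and 35.1 CPM (log2 ratio -0.03, -0.27 to 0.20). Srm, the spermidine synthase gene, stood at 14.3 and 8.68 (-0.72), and Slc7a2, which encodes a transporter of arginine, the precursor of polyamines, at 6.53 and 15.97 (1.29, 0.84 to 1.75). Sat1, which starts polyamine breakdown, stood at 513 and 600 (0.23), and Smox, the spermine oxidase gene, at 83.3 and 85.1 (0.03). Arg1, which makes ornithine from arginine, was capped by the definition and stood at 212 and 379 within the cap.

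Energy metabolism differed by small amounts. None of 62 nuclear oxidative phosphorylation genes passed the rule (list median log2 ratio -0.21), and 5 of 62 lay above 0, where the median of all genes was 0.11. None of the 13 mitochondrially encoded genes passed, with a median of 0.14. Eno1, the glycolytic enolase gene, was the called gene of 18 in glycolysis (0.63, 0.54 to 0.72), and its call ended under median gene ratio scaling. Malat1, a nuclear RNA, stood at 7356 and 11560 (0.65), and its part in these medians was not tested.

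Receptors and secreted factors of mature myeloid cells included several called genes. Fcgr2b, the inhibitory Fc receptor, stood at 212 and 480 CPM (1.18, 1.10 to 1.26), and Fcgr4, an activating one, had 0.70. Cfb, complement factor B, stood at 219 and 436 (0.99, 0.91 to 1.07), and C3ar1, a receptor for a complement fragment, had 0.71. These were 4 of 13 Fc and complement genes, beside 8.04% of all genes called higher, and none was lower. Fcgr2b and Fcgr4, however, lie in the same stretch of chromosome 1 as the Ifi200 genes and carry the limit given there. Of 18 lysosome genes 2 were called higher, beside 8.04% of all genes. Lgmn, the protease legumain, stood at 169 and 340 (1.01), and Cd63 had 1.01. Il1rn, the interleukin-1 receptor antagonist, stood at 113 and 213 (0.91, 0.80 to 1.02), Vegfa had 0.77 and Trem1, an amplifier of inflammation, had -0.66. Those 3 belong to 21 immunosuppressive mediators, of which 4 were called higher and 1 lower, beside 8.04 and 2.05% of all genes.

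Among 19 adhesion and migration genes 3 were called higher and 1 lower, beside 8.04 and 2.05% of all genes. Cxcr4, the receptor that retains cells in the marrow, stood at 57.4 and 121 CPM (1.08, 0.92 to 1.23), and it lies in the stretch of chromosome 1 around Ptprc treated below, where the Vsir deletion and the CD45 allele of the donor cannot be told apart. Cx3cr1, the fractalkine receptor of nonclassical monocytes and macrophages, stood at 40.9 and 88.4 (1.11, 0.93 to 1.29). It was the gene called higher among 14 nonclassical monocyte genes, and Pglyrp1 (-0.82) was the gene called lower. Of 23 transcription factors 4 were called higher and none lower, beside the same shares of all genes. Nfe2l2, which encodes NRF2, stood at 123 and 195 (0.67), and Cebpa, a myeloid factor, at 20.5 and 36.8 (0.84). Irf8 and Spi1, the factors that specify monocytes, stood at 237 and 303 and at 580 and 597, within the rule. Csf1r, the receptor for the macrophage growth factor, had 0.68.

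Cell cycle genes were low in both libraries. The S phase list summed to 187 and 206 CPM with no call among 17 genes. The G2 and M phase list summed to 492 and 418, with 4 of 15 lower, beside 2.05% of all genes. Ccnb2, a mitotic cyclin gene, stood at 9.49 and 2.51 (-1.92). Mature dendritic cell genes were called higher in 6 of 7, beside 8.04% of all genes, but Ccr7, Fscn1 and Ccl22 were found in 0.815 to 2.06% of monocytes. T cell genes were called lower in 4 of 4, beside 2.05% of all genes, and were found in fewer than 1% of cells. With at least 5 Lyz2 UMIs their median log2 ratio was -0.09. The Hbb-bs level rested on 1326 UMIs in 2 VISTA KO cells. No tumor epithelium marker reached 20 UMIs.

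Genes with the most extreme ratios clustered on chromosome 1. Ifi202b stood at 6.12 CPM in WT monocytes and 576 CPM in VISTA KO monocytes, a log2 ratio of 6.55 (6.19 to 6.95), and was found in 0.951 and 78.4% of cells. In NK cells it stood at 0 in WT and 122 in VISTA KO. Chil1, which encodes another chitinase-like protein, had 1381 UMIs in WT and 1 in VISTA KO, a log2 ratio of -10.13 (-15.44 to -7.65). Ifi213 stood at 220 and 4.02 (-5.77, -6.32 to -5.27), and Ifi206 at 184 and 17.3 (-3.41, -3.67 to -3.16). These are Ifi200 family genes, and Ifi202b moved against Ifi213 and Ifi206. Ppfia4 (6.15) was higher, and Ctse (-3.88), which encodes cathepsin E, and Npl (-3.82) were lower.

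Of 23 genes that differed at least 4-fold, 8 lay on chromosome 1, all within 40 Mb of Ptprc (chr1:138062859-138175756, GRCm38.p6). Ptprc encodes CD45, whose allelic forms CD45.1 and CD45.2 separated the donors here by antibody. Within that window 26 of 205 genes were called higher and 19 lower, 21.95% in all, against 13.5% over the 460 genes of chromosome 1 and 8.31% over all 7806. Vsir lies on chromosome 10 (60346851 to 60430294). The Vsir deletion and the CD45 allele of the donor cannot be told apart for these genes.

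**Figure D4:**
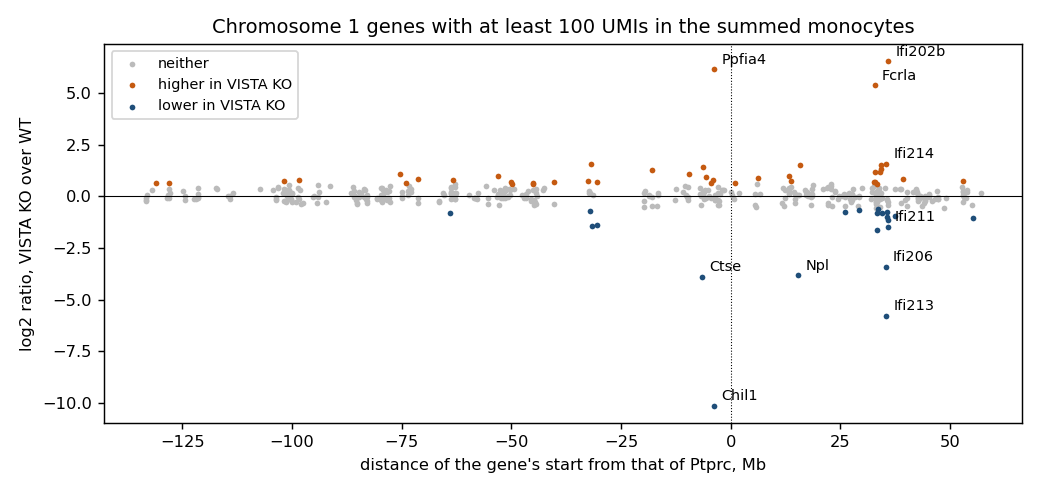
Log2 ratio of VISTA KO over WT in monocytes for the 460 genes of chromosome 1 with at least 100 UMIs, by distance of the start of each gene from that of Ptprc in Mb. Orange genes were called higher and blue genes lower. Chil1, Ppfia4 and Ctse lie within 7 Mb of Ptprc, and the Ifi200 genes lie about 35 Mb beyond it.

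Among genes found in at least 5% of monocytes of either library, and without ribosomal, hemoglobin, Gm and Rik genes, the highest ratios outside chromosome 1 were those of Mid1 (2.89), H2-Q6, Zmynd15 (2.15) and Pltp, a phospholipid transfer protein (2.09, from 11.2 to 47.9 CPM). Anpep, which encodes the aminopeptidase CD13, had 1.86 and Hvcn1, a proton channel, 1.79. The lowest of the same genes outside chromosome 1 were Eno1b (-1.996), Pttg1, which encodes securin, at 62.1 and 16.5 (-1.91), Wdr89 (-1.87), Lcn2 and Vsir. Bloc1s1 had -1.58 and Rnaset2b, a gene with a near-identical copy, had -1.42. Eno1b carries the limit given with Eno1.

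The monocytes were compared with cells that passed every limit but one. The C1q group held 665 WT and 1470 VISTA KO cells, the Arg1 group 405 and 424, the Cxcl9 and Nos2 group 137 and 217, and the Ifit group 549 and 601. These groups are set apart by the rule, so differences between them and the monocytes are description. Against the C1q group, 4 of 6777 genes were at least 2-fold higher in monocytes of both libraries and 23 lower. Klrd1 led the higher genes, at 46.4 and 33.9 CPM in monocytes and 9.51 and 11.1 in the C1q group, but 367 of its WT monocyte UMIs lay in the cells with fewer than 5 Lyz2 UMIs. Ccl8, Folr2, Pf4 and Ms4a7, genes of resident-type macrophages, led the lower genes. Ms4a7 stood at 368 and 355 in the C1q group beside 42.2 and 129 in monocytes.

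Against the Arg1 group, 70 of 6281 genes were higher in monocytes and 92 lower. Pf4, Spp1 and F7 led the lower genes, and Spp1, which encodes osteopontin, stood at 72.7 and 106 in monocytes and 639 and 727 in the Arg1 group. Against the Ifit group, 3 of 6340 genes were higher and 37 lower, with Rsad2 at 255 and 283 in monocytes and 1332 and 1263 in the Ifit group. Against the Cxcl9 and Nos2 group, 28 of 5959 were higher and 28 lower, with Sod2, the mitochondrial superoxide dismutase gene, at 283 and 306 against 928 and 859.

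The same genotype ratios were taken in the neighbouring groups. The log2 ratio of H2-Aa was 1.38 in monocytes, 1.48 in the C1q group, 1.74 in the Arg1 group, 0.94 in the Cxcl9 and Nos2 group and 0.96 in the Ifit group. That of Ccl5 was 1.85, 1.60, 1.45, 1.55 and 1.25 in the same order, that of Vsir -1.80, -1.66, -1.14, -2.26 and -2.02, and that of Isg15 -0.89, -0.98, -1.14, -0.75 and -0.87. Ms4a7 differed more between groups, at 1.61, -0.05, 0.60, 2.53 and 0.79, and the macrophage list had medians of 0.84, 0.16, 0.52, 1.03 and 0.58. Direction was shared for H2-Aa, Ccl5, Vsir and Isg15, and differences between groups were not tested.

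Surface tags gave a readout the definition had not used. Each tag is an antibody that carries a DNA barcode, and the barcodes counted here are those of the deposited antibody table.
CD11c: gttatggacgcttgc
Ly6G: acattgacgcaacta
Ly6C: aagtcgtgaggcatg

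The Ly6C tag had a median of 851.5 tag UMIs per cell in WT monocytes and 831 in VISTA KO, against 184.5 and 167 in NK cells and 266.5 and 248 in cells that failed on Cd209a alone. It was higher in the C1q group (1316 and 1124.5) and the Arg1 group (1501 and 1180.5) than in the monocytes. The Cxcl9 and Nos2 group (936 and 1029) and the Ifit group (1066 and 903) also lay above them. Over all kept cells the median was 1083 and 1024, so a high Ly6C tag did not set the monocytes apart within the sort. The Ly6G tag, which marks neutrophils, had a median of 3 in both genotypes, against 66 in WT and 49 in VISTA KO among cells that failed on S100a8 and S100a9 alone, of which VISTA KO held 8. The CD11c tag had a median of 5 and 6. The Ly6C medians of the monocytes were close between the libraries, but not every monocyte stood above the NK cells. The lower quartile of the Ly6C tag was 524.75 in WT and 501.75 in VISTA KO monocytes, and the 95th percentile in NK cells was 344 and 544.

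**Figure D5:**
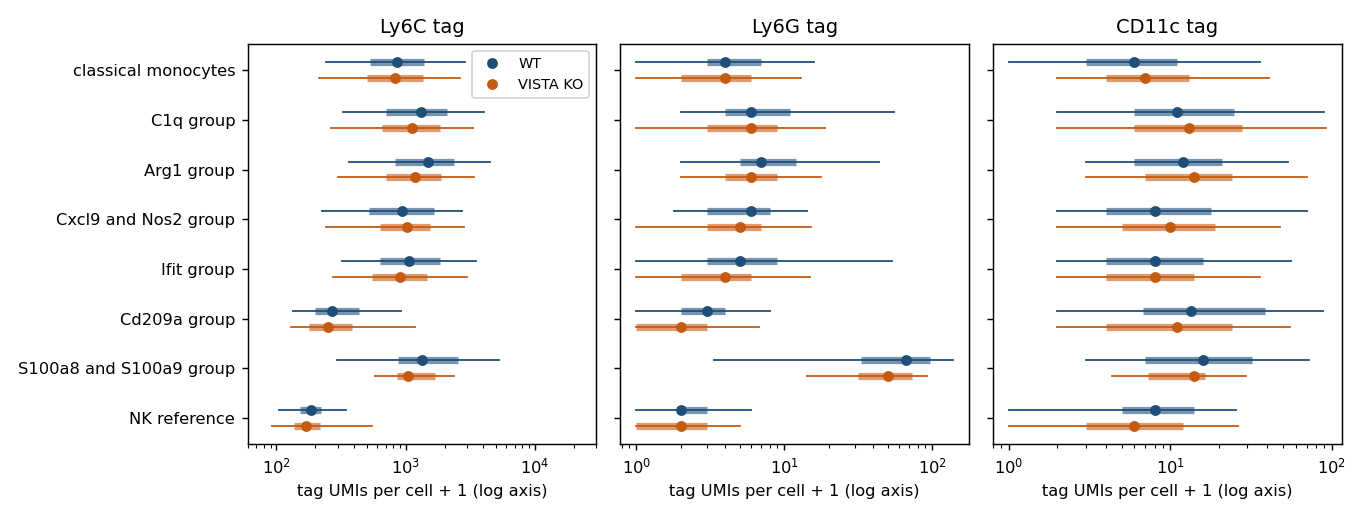
Tag UMIs per cell plus 1 (log axis) for Ly6C, Ly6G and CD11c in monocytes, in groups that fail 1 limit and in NK cells, for WT in blue and VISTA KO in orange. The point is the median over cells, the thick bar the quartiles and the thin line the 5th to 95th percentile, so the spread is between cells of 1 library. Ly6C medians of the monocytes, 851.5 and 831, lie well above those of the NK cells, 184.5 and 167. They lie below those of the C1q, Arg1, Cxcl9 and Nos2, and Ifit groups.

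Tag and RNA were related cell by cell. Over 2208 WT and 2040 VISTA KO monocytes the Ly6C tag and the share of UMIs from Ly6c2 had Spearman's rho of 0.44 and 0.43, with both readouts from the same droplet. The CD11c tag and the share of UMIs from H2-Aa had 0.34 and 0.41. When the monocytes of each library were put in 4 equal bins by Ly6C tag, H2-Aa in the bin with the least tag stood at 1586 and 2590 CPM, a log2 ratio of 0.71 (0.65 to 0.77). In the next bins up it was 1.89, 2.06 and 1.64. Ly6c2 ratios stayed between 0.03 and 0.10 over the bins, and Vsir ratios between -1.96 and -1.71. Within each of the 4 bins H2-Aa and Apoe were higher and Vsir lower in VISTA KO.

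Among the monocytes, Hbb-bs had the highest variance over the mean, averaged over the libraries, and it was held by very few cells. Ccl5 and Ccl4, both chemokine genes, came next. After thinning to 2000 UMIs, the variance over the mean was 38.6 in WT and 26.0 in VISTA KO for Ccl5, 31.5 and 23.03 for Ccl4, 18.7 and 19.4 for Fth1, the ferritin heavy chain gene, and 17.0 and 15.3 for Cd74. Apoe had 13.6 in both. Class II genes varied together, with rho of 0.68 and 0.81 between H2-Aa and Cd74 over 2097 and 1868 thinned cells. MHC class II RNA made up a median of 0.15% of a WT monocyte's UMIs and 0.60% of a VISTA KO monocyte's, with upper quartiles of 0.45 and 1.91%. The classical monocyte list made up 3.50 and 3.25%. Chil3 and H2-Aa had a weak negative rho of -0.22 and -0.25, which in sparse counts is no finding.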

How the data were processed

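Gene expression and 3 antibody tags were measured in sorted CD11b+ tumor cells by 10x Genomics 3 prime v3.1 sequencing, per the labels' protocols. The deposited matrices hold counts of UMIs, not normalized, for 32285 genes and 3 tags per barcode. Cell Ranger 5.0.0 wrote them, per the file headers. The submitters' processing notes name the mm10 build, Cell Ranger and Seurat 4.0, and how cells were called is not stated there.

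Barcodes were kept from 200 genes and 500 gene UMIs upward, with no more than 10% of UMIs mitochondrial. The members and gene lists were chosen with earlier results of these data known. No doublet caller was run, and 2 WT and 3 VISTA KO monocytes held over 15000 UMIs. Of 38 symbols that occur more than once the entry listed earliest was read, and 3 of 603 listed symbols were not in the matrices. No column of another sample was present (0).

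UMIs were summed over monocytes in each library and scaled per 1000000 (CPM). Ratios have exact conditional binomial intervals, levels exact Poisson intervals and shares exact Clopper-Pearson intervals, all at 95%. Genes needed 100 UMIs over both sums, lists 20. For shares at equal depth each cell was thinned to 2000 UMIs, which left out 111 WT and 172 VISTA KO monocytes and 218 and 108 NK cells. Named genes were, among genes with at least 100 UMIs found in at least 5% of monocytes, the 15 highest and 15 lowest ratios, without mitochondrial, ribosomal, Xist, Y-linked, Gm, Rik, hemoglobin, immunoglobulin and T cell receptor genes. Beside them stood the classical markers, up to 4 members a list, genes of the STAT3, polyamine and checkpoint lists, the 8 leading genes of each neighbour comparison and direction, and the most variable genes. Other genes, such as Cd74 and Cxcl16, were named after their values were seen, as were the splits by Lyz2, Chil3 and Vcan. Promoters came from RefSeq (GRCm38.p6). Python 3.11.15, numpy 2.4.6, scipy 1.17.1, pandas 2.3.3 and matplotlib 3.10.9 were used, and ratios were tested on simulated data with known answers.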

Additional observations from a re-analysis of the deposited data

How the results depend on the processing

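No paired analysis was possible because neither genotype had a second library, and for the same reason no replicate could be left out. The monocyte share of kept cells moved in WT and VISTA KO to 23.4 and 15.8% with a marker limit of 6 UMIs, 19.7 and 11.2% with 15, 13.5 and 4.25% with no C1q UMI allowed, and 34.5 and 23.6% without limits on Arg1, Cxcl9 and Nos2, and Ifit genes. It was 26.4 and 16.7% with cells thinned to 2000 UMIs and limits scaled. Settings added after seeing the data gave 27.0 and 14.1% of cells without neutrophil RNA, 19.8 and 12.4% with at least 5 Lyz2 UMIs, and 15.4 and 8.49% with a Chil3 or Vcan UMI. The share was lower in VISTA KO under each of these. A gene minimum of 20 UMIs gave 834 genes higher and 213 lower, and a fold of 2 gave 124 and 40. The 12 other settings gave 356 to 585 higher and 111 to 171 lower.

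Of 224 named genes 96 passed the 1.5-fold rule, 73 of them under all 12 settings. The sign turned for Gzmb with no C1q UMI (-1.70), for Hbb-bs (-2.61) and Cxcl3 (0.49) with a marker limit of 15, and the cause was not tested. Hp ranged from -0.68 to -0.52 and Vcan from -0.81 to -0.41, while H2-Aa stayed between 1.30 and 1.99 and Apoe between 1.33 and 1.82. Of 42 list medians 10 moved by over 1.25-fold, among them MHC class II, to 1.59 with a Chil3 or Vcan UMI required. Genes with fewer than 100 UMIs over both sums were outside the counts, so depth limits what can be said of low genes.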
